A study of Mus musculus with 12 samples.

Results

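The small nucleolar RNA (snoRNA) and small Cajal body RNA (scaRNA) genes were examined in mpkCCD cells, a mouse line derived from principal cells of the kidney collecting duct. Members were chosen by symbol and by the deposited level: they were the genes whose symbol begins with Snora, Snord or Scarna and a number, and whose value reached at least 0.5 FPKM (fragments per kilobase of gene and M mapped reads, where M stands for 1e6) in at least 1 group. Of 131 such symbols with values, 51 were members, among 52015 genes used. They comprised 33 Snord (C/D class), 15 Snora (H/ACA class) and 3 Scarna genes. Another 13 symbols were above 0 but below 0.5 FPKM in every group, and 67 were listed at 0 in all of them.

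Scr cells had received a scramble guide RNA, and Nfat5-KO cells came from the CRISPR/Cas9 clones N1 and N3, which carry a knockout of Nfat5, the gene of an osmosensitive transcription factor. Both were kept for 5 days at 300 mosmol/kg (isotonic) or at 600 mosmol/kg (hypertonic, made by adding 100 mM NaCl and 100 mM urea). Scr_300 and Scr_600 had 2 RNA-seq libraries each, and Nfat5-KO_300 and Nfat5-KO_600 had 4 each, 12 in all. By the labels, each Nfat5-KO group held 2 libraries of clone N1 and 2 of clone N3, so its 4 libraries are not 4 separate knockouts. Knockout and clone cannot be told apart here. The deposited values are 1 pooled FPKM per gene and group, so that no test was made, and the rule used these same values. All differences are given as descriptions.

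C/D snoRNAs guide 2′-O-methylation of rRNA and snRNA together with the methyltransferase fibrillarin, and H/ACA snoRNAs guide pseudouridylation together with the pseudouridine synthase dyskerin. scaRNAs carry the same boxes and guide the modification of spliceosomal snRNAs in Cajal bodies. Most vertebrate snoRNAs are cut out of introns of a host gene after splicing and are not polyadenylated. The authors purified the RNA on poly-T beads, so the values count the reads that fell on these genes after such a selection, which may come from the snoRNA itself or from longer transcripts that contain it.

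All 51 members had a transcript in the GENCODE M21 annotation of GRCm38. Their median length was 93 bases, from 64 to 265. The letters TGATG, the core of the C box, stood in the first 20 bases of 30 of the 33 C/D members (90.9%) and of 0 of the 15 H/ACA members, and CTGA, the D box, in the last 20 bases of 32 (97.0%) and of 2 (13.3%). In 15900 other annotated genes with a transcript under 400 bases, the shares on the given strand were 2.37% and 10.1%. ACA within the last 6 bases was found in 14 of 15 H/ACA members (93.3%), in 3 of 33 C/D members (9.09%) and in 6.73% of the other transcripts. The letters ANANNA of the H box, in the part from 30 to 70% of the length, were in 93.3% of H/ACA members, but also in 75.2% of other transcripts, so that they set the class apart less. Among the Scarna members, Scarna8 ended in ACA, and Scarna6 and Scarna9 had both C and D letters. The letters are a description, and they fit the class given by the symbol in most members.

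The 5 C/D members below are shown because Snord104 had the highest level of the class, Snord72 was lower in the knockout at both osmolalities, Snord70 and Snord11 share a host gene and differed in opposite ways, and Snord42b had no read in Nfat5-KO_600. Sequences run 5′ to 3′ from GENCODE M21, with the C and D box letters in capitals. Snord104 lies at chr11:106500993-106501062 (plus strand), Snord72 at chr15:5118404-5118484 (plus), Snord70 at chr1:59691934-59692020 (plus), Snord11 at chr1:59704790-59704873 (plus) and Snord42b at chr11:78183056-78183124 (minus), all in GRCm38.
Snord104: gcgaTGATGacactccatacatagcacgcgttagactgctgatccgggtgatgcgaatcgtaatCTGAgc
Snord72: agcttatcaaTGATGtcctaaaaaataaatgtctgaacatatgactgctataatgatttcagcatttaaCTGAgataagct
Snord70: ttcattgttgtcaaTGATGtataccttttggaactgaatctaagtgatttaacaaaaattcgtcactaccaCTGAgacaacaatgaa
Snord11: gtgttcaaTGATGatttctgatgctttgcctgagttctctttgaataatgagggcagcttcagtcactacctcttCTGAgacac
Snord42b: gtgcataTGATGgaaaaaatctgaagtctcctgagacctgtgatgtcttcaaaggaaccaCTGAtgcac

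The H/ACA members Snora57 and Snora31 had, in that order, the highest level of the class and the highest Scr_600 to Scr_300 ratio among H/ACA members in whole reads. Scarna8 is the Scarna gene with the highest level in Scr_300. The ACA letters near the 3′ end are in capitals. Snora57 lies at chr19:8888538-8888685 (minus strand), Snora31 at chr14:75847905-75848034 (plus) and Scarna8 at chr4:86586453-86586583 (minus).
Snora57: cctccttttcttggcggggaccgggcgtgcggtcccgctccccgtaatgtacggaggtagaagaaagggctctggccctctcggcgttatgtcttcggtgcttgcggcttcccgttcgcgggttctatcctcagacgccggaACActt
Snora31: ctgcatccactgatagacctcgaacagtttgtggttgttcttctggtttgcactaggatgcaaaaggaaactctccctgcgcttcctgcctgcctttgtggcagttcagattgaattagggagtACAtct
Scarna8: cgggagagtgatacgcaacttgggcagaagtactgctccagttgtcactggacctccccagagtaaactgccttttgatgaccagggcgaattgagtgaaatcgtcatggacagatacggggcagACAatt

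Most members lay inside another gene. A gene on the same strand spanned 48 of 51 members, 43 of them in an intron and 5 with an overlap to an annotated exon (Snord100 in Rps12, Snord16a in Rpl4, Snord42b in Rpl23a, Snora15 in Cct6a and Snora2b in Kansl2). Snord104, Snora57 and Snora17 had no such gene. The hosts were 41 genes, and 16 members sat in 13 ribosomal protein genes. The median of the hosts' mean levels over the members was 40.2 FPKM, and the median level of the members was 1.35 FPKM. Whether the authors' counting used strand is not given in the sources used here, so reads of a host and of the snoRNA within it, or of a gene on the other strand, cannot be told apart.

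The pooled values still hold the reads of single libraries. Multiplied by the gene length, 170 of 196 member values were sums of whole reads at the annotated length, with 2 step sizes in each Scr group and 4 in each Nfat5-KO group, which matches the number of libraries in the labels. The steps correspond to 32.0 and 35.9 M mapped reads for Scr_300, 35.1 and 37.1 M for Scr_600, 29.3 to 32.8 M for Nfat5-KO_300 and 33.2 to 37.5 M for Nfat5-KO_600. Reads per library were obtained in all 4 groups for 45 members, and in the Scr groups alone for Snord104 and Snora57, whose reads in the 4-library groups are too many to be resolved. Snord43, Snord49b and Snord59a gave whole reads only at another length than that annotated. Of these, Snord43 is a C/D member by symbol but is annotated as a miRNA of 108 bases, and it gave whole reads at 64 bases. Snora34, Snord100, Snord16a and Snord93 were not whole reads of these libraries. The main counts past 2-fold, their medians and the class sums are given with and without them. Counts by class, counts limited to members at 0.5 FPKM or more in both groups, and the correlations with hosts include them. Among other genes under 400 bases, 25.7% held a value below 1 read of any library, so the steps do not describe every short gene. The recovered libraries can be ordered by depth only, so their clone or replicate number is unknown. They are given below from the deepest to the shallowest.

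Depth limited the members strongly. Over the 45 members the median was 10 reads per member in Scr_300 and in Scr_600, 14 in Nfat5-KO_300 and 18 in Nfat5-KO_600, summed over the libraries of the group. In Scr_300, 21 of the 45 members had under 10 reads. Nfat5 itself was at 5.61 FPKM in Scr_300, 7.93 in Scr_600, 3.47 in Nfat5-KO_300 and 6.88 in Nfat5-KO_600, so transcript was still counted in the knockout groups. Of the collecting duct markers, the keratins Krt8 and Krt18 were at 188 FPKM or more in each group, and Cdh1 and Epcam at 72.7 or more. Others of the 17 markers differed between groups. Of the 9 compared, 2 were at least 2-fold above Scr cells in the knockout at 300 and 3 at 600 mosmol/kg. Over all genes the shares were 1.73% and 3.76%. Gata3, a transcription factor of the distal nephron and collecting duct, was at 3.41 FPKM in Scr_300, 4.33 in Scr_600, 11.8 in Nfat5-KO_300 and 30.04 in Nfat5-KO_600. In the same order Hsd11b2, which inactivates cortisol, was at 0.383, 0.655, 1.95 and 6.18 FPKM, and Scnn1a, a subunit of the epithelial sodium channel, at 2.95, 1.31, 3.56 and 7.03 FPKM. The keratin Krt19 was at 154 and 173 FPKM at 300 and at 67.9 and 49.3 FPKM at 600 mosmol/kg in Scr and knockout cells. The part of these differences in the results on the members was not tested. The water channel Aqp2, which defines principal cells, was between 0 and 0.245 FPKM. Other collecting duct markers were low in every group as well. Fxyd4 reached 0.455 FPKM at most, Scnn1b 0.173, Scnn1g 0.0883, Aqp4 0.0452, Avpr2 0.0193 and Elf5 0.0141, and Tfap2b was listed at 0. Ptprc of leukocytes stayed at or below 0.0224 FPKM and Foxi1 of intercalated cells was listed at 0, whereas Slc4a1 of the same cells was at 0.417 FPKM in Nfat5-KO_600 and at or below 0.0259 in the other groups, and Lrp2 of the proximal tubule was at 1.07 FPKM in Nfat5-KO_600 and at or below 0.168 in the other groups.

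Levels of the classes were led by a single gene each. Snord104 was at 77.8 FPKM in Scr_300, 114 in Scr_600, 58.1 in Nfat5-KO_300 and 89.9 in Nfat5-KO_600, and it held between 48.7 and 61.4% of the summed FPKM of the 33 C/D members. Snora57 was at 20.1, 25.4, 21.4 and 23.1 FPKM in the same order, or 44.6 to 52.9% of the 15 H/ACA members. The next levels were lower by far: Snord72 at 9.62, 8.70, 5.48 and 4.99 FPKM, Snord55 at 7.29, 6.64, 7.46 and 4.61 FPKM and Snord49a at 7.90, 5.87, 5.15 and 4.21 FPKM. Snord58b, in an intron of Rpl17, was at 4.56, 4.24, 5.64 and 3.58 FPKM. Of these 4, Snord72 and Snord49a had lower pooled levels in both Nfat5-KO groups than in both Scr groups. For Snord49a the deeper library held 82.5% of the reads in Scr_300 and 77.4% in Scr_600. Its Scr and knockout libraries overlapped at both osmolalities.

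The summed level of C/D members was 159 FPKM in Scr_300, 193 in Scr_600, 119 in Nfat5-KO_300 and 146 in Nfat5-KO_600. Without Snord104 it was 81.6, 78.9, 61.2 and 56.5 FPKM, so that without that gene the sum was not higher at 600 mosmol/kg in either genotype. The H/ACA members summed to 39.5, 57.0, 40.4 and 46.3 FPKM in the same order, and to 19.4, 31.6, 19.0 and 23.2 FPKM without Snora57. Without the members that were not whole reads, the C/D sums were 154, 183, 116 and 140 FPKM, and 76.4, 68.1, 57.5 and 50.3 FPKM when Snord104 was left out too. The H/ACA sums were then 38.1, 52.1, 39.0 and 43.0 FPKM, and 17.95, 26.7, 17.6 and 19.9 FPKM without Snora57. The 3 Scarna members summed to 2.63, 1.30, 0.585 and 1.13 FPKM. Of the 51 members, 44 reached 0.5 FPKM in Scr_300, 47 in Scr_600, 38 in Nfat5-KO_300 and 41 in Nfat5-KO_600, and 33 did so in all 4 groups.

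**Figure D1:**
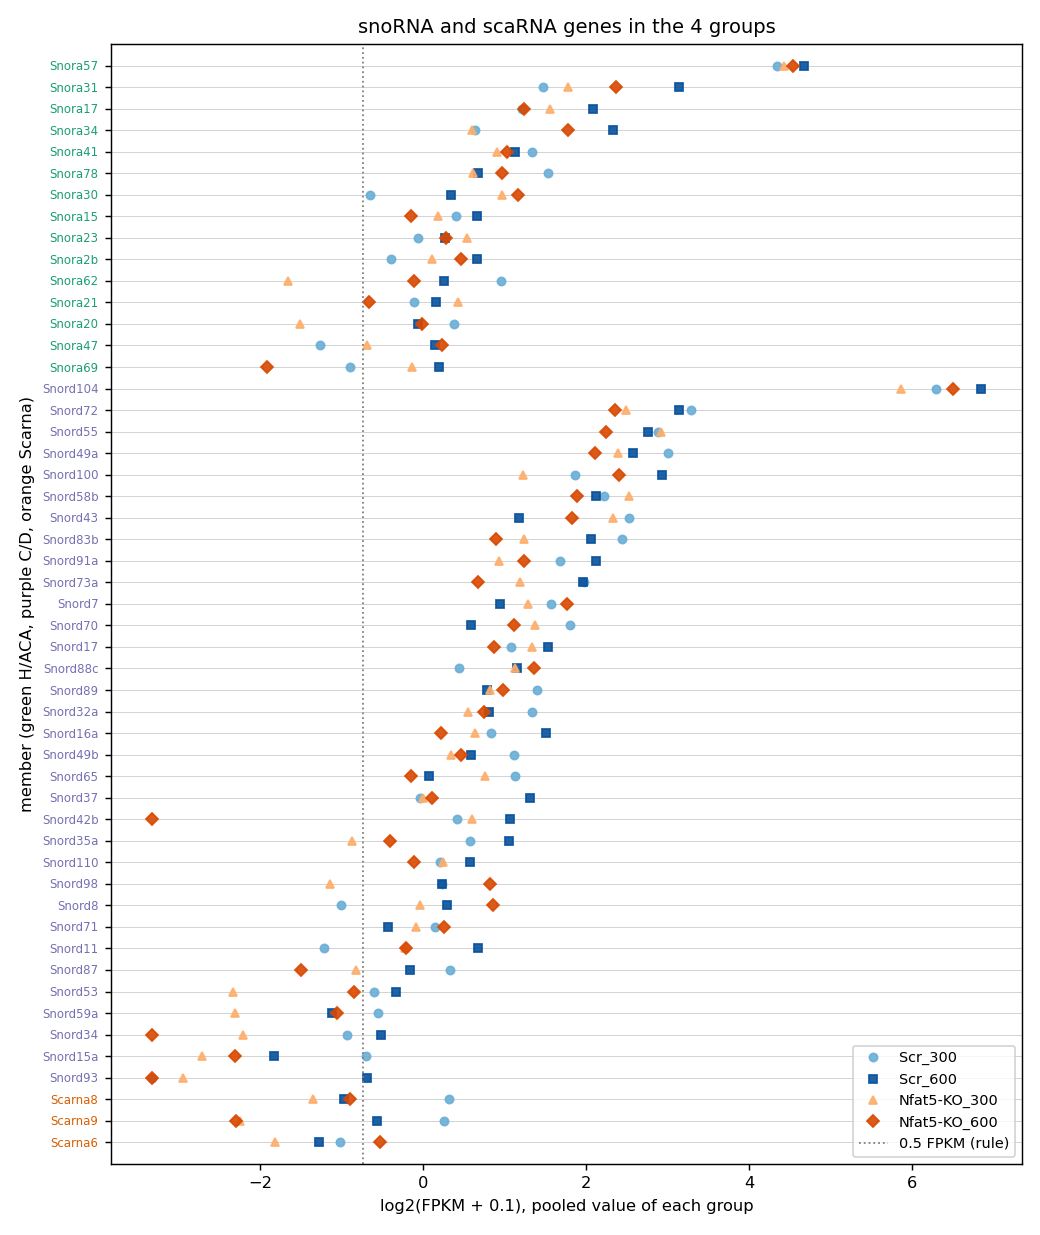
Level of each of the 51 members as log2(FPKM + 0.1) in the 4 groups (1 pooled value per group, symbols), with members ordered by class and mean level and the dotted line at the 0.5 FPKM of the rule. Snord104 and Snora57 stand well to the right of their classes, and Snord42b in Nfat5-KO_600 lies at 0 FPKM on the left edge.

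At the threshold itself, Snord93 was the member just inside at 0.517 FPKM in Scr_600 and Snord15a at 0.517 FPKM in Scr_300. Just outside lay Snord92, at 0.496 FPKM in Nfat5-KO_300, and Snord66, at 0.473 FPKM in Nfat5-KO_600. Several well known snoRNAs were not members. Snord118 (U8), which acts in the processing of large-subunit rRNA, reached 0.103 FPKM at most, and Snord13, which guides an acetylation of small-subunit rRNA, 0.277 FPKM. Snora73a and Snora73b, Snord14a, Snord14c, Snord14d and Snord14e of small-subunit rRNA processing, and the Snord116l1 and Snord116l2 genes were listed at 0 in all groups. As the RNase components Rmrp and Rpph1 were also listed at 0, such a value does not show that an RNA was absent from the cells.

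Libraries of the same group differed more in these genes than in other short genes. The reads of the 45 members together were 441 and 196 in Scr_300, 496 and 209 in Scr_600, 182, 164, 283 and 290 in Nfat5-KO_300, and 216, 145, 348 and 305 in Nfat5-KO_600. In reads per M mapped reads (RPM) this was 12.3 and 6.13 in Scr_300, and 13.4 and 5.95 in Scr_600. In Nfat5-KO_300 it was 5.55, 5.05, 9.17 and 9.88, and in Nfat5-KO_600 it was 5.76, 4.10, 10.0 and 9.18 RPM. Every group thus held libraries near 4 to 6 and others near 9 to 13 RPM, and the groups overlapped throughout. The highest library was 1.96 to 2.45 times the lowest of its group. For 1858 other genes under 400 bases with recovered reads, that ratio was 1.10 to 1.37, and the same libraries were the higher ones in each group: they ranged from 119 to 131 RPM, against 91.7 to 116 in the others. The part of this difference between libraries in the comparisons below was examined by leaving out 1 library at a time, and its source was not tested.

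**Figure D2:**
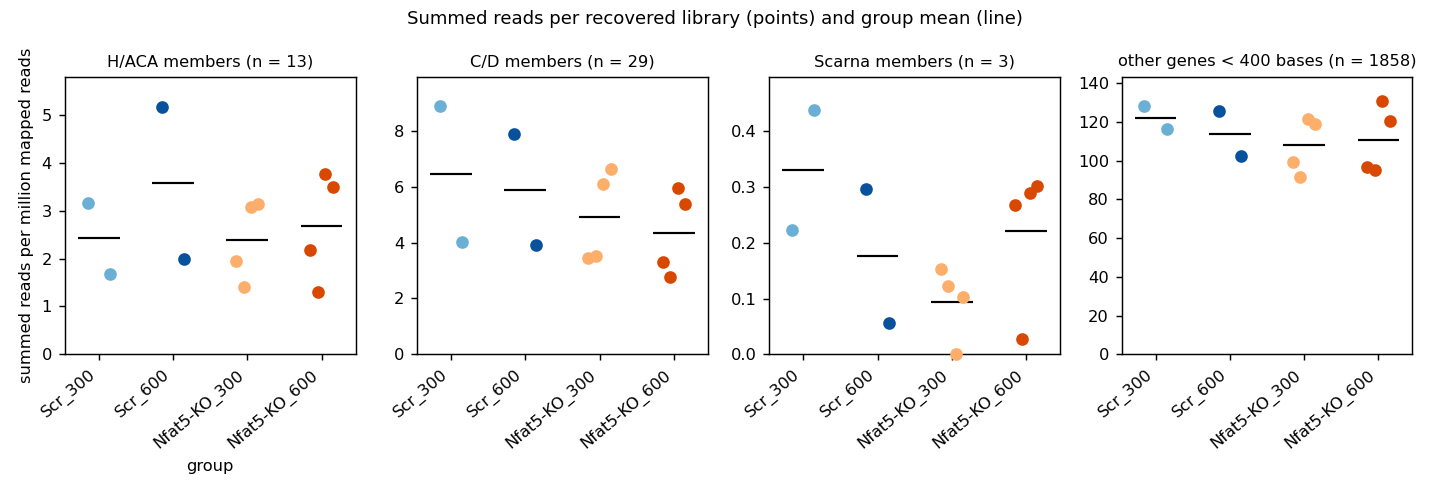
Summed reads per M mapped reads of the H/ACA (13), C/D (29) and Scarna (3) members with recovered reads and of 1858 other genes under 400 bases, with 1 point per recovered library (2, 2, 4 and 4) and a line at the group mean. H/ACA and C/D points of all groups overlap, and libraries of 1 group lie far apart, from 4.10 to 10.0 RPM over all members in Nfat5-KO_600.

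By class, the H/ACA reads ran from 1.69 to 3.17 in Scr_300, 1.99 to 5.17 in Scr_600, 1.42 to 3.14 in Nfat5-KO_300 and 1.30 to 3.78 RPM in Nfat5-KO_600. The C/D reads ran from 4.003 to 8.88, 3.90 to 7.89, 3.44 to 6.65 and 2.77 to 5.97 RPM in the same order. The Scarna reads were few, with 22 in Scr_300, 13 in Scr_600, 12 in Nfat5-KO_300 and 31 in Nfat5-KO_600. In this class both Scr_300 libraries (0.223 and 0.438 RPM) lay above all 4 Nfat5-KO_300 libraries (0 to 0.152 RPM), whereas the 600 mosmol/kg groups overlapped. Scarna8 and Scarna9 reached 0.5 FPKM at 300 mosmol/kg in Scr_300 alone, so the choice of members favours this order.

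The response of Scr cells to hypertonicity was mixed. Among the 50 members with at least 0.5 FPKM in Scr_300 or Scr_600, 10 (20%) were higher by 2-fold or more at 600 mosmol/kg and 5 (10%) lower, on the scale of FPKM + 0.1. Over all 12929 genes compared, the shares were 4.81% and 2.86%, and over 679 other genes under 400 bases 17.8% and 16.1%, so that the members were spread about as widely as other short genes. Their median log2 ratio was 0.26, against -0.04 over all genes. Without the 4 members that were not whole reads it was -0.01, with 7 higher and 5 lower. H/ACA members had 5 of 15 higher and 0 lower (median 0.33), and C/D members 5 of 33 higher and 4 lower (median -0.02). Of the 15 members past 2-fold, 7 were under 0.5 FPKM in 1 of the 2 groups and could enter only through the other.

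Snora31, an H/ACA snoRNA in an intron of Tpt1 (the translationally controlled tumour protein), had the most reads of the members in whole reads that were past 2-fold. It had 17 and 7 reads in Scr_300 and 68 and 15 in Scr_600. The ratio was 3.25 with a 95% exact counting interval of 2.04 to 5.35, but 81.9% of the Scr_600 reads came from the deeper library, and the other (0.427 RPM) lay between the Scr_300 libraries (0.219 and 0.473). In Nfat5-KO_300 it had 12, 10, 18 and 14 reads and in Nfat5-KO_600 23, 20, 21 and 28, a ratio of 1.52 (1.07 to 2.17), where the libraries still overlapped. Intervals here cover counting error only, and no difference between libraries enters them.

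Snord104 had 180 and 188 reads in Scr_300 and 349 and 233 in Scr_600, or 5.01 and 5.88 against 9.40 and 6.63 RPM. Both Scr_600 libraries were above both Scr_300 libraries, and the ratio was 1.49 (1.30 to 1.70). In the knockout its pooled level was also higher at 600 mosmol/kg, at a log2 ratio of 0.63 against 0.56 in Scr cells. Snora57 had 131 and 74 reads in Scr_300 and 197 and 78 in Scr_600, where the libraries overlapped, at a ratio of 1.26 (1.05 to 1.52).

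In 7 of 46 members with reads per library both Scr_600 libraries were above both Scr_300 libraries, and in 5 both were below. The first were Snord104, Snora17, Snord37, Snord8, Snord11, Snora47 and Snora69, and the second Snord43, Snord70, Snora78, Snord65 and Scarna8. Among 390 other genes under 400 bases this held for 17.9% and 20.8%, so the members' shares were not above those of other short genes. Snord8, Snord11, Snora47 and Snora69 were under 0.5 FPKM in Scr_300, and Scarna8 was so in Scr_600. These members could enter only through the group where they were higher. Snord43, in an intron of the ribosomal protein gene Rpl3, had 18 and 7 reads in Scr_300 and 6 and 4 in Scr_600, a ratio of 0.376 (0.161 to 0.810). Its knockout values were 1, 4, 9 and 24 reads at 300 and 6, 6, 14 and 5 at 600 mosmol/kg, which overlapped widely.

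Snord70 and Snord11 lie in introns of Nop58, a core protein of the C/D particle itself. Snord70 had 11 and 9 reads in Scr_300 and 8 and 1 in Scr_600 (ratio 0.423, interval 0.170 to 0.971), while Snord11 had 2 and 0 reads and then 4 and 5 (ratio 4.23, interval 0.875 to 40.2). Their host Nop58 was at 24.0 FPKM in Scr_300 and 17.97 in Scr_600. In the knockout the same pair had 8, 4, 8 and 7 against 4, 8, 7 and 6 reads for Snord70, and 0, 4, 3 and 1 against 2, 2, 3 and 2 for Snord11. The opposite direction within 1 host was thus seen in Scr cells only as far as these few reads go, and the difference between genotypes was not tested.

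The counts past 2-fold in Scr cells depended on single libraries. Over 44 members with reads per library, 7 were higher and 5 lower with all 4 libraries. Without the deeper Scr_600 library 3 were higher and 22 lower, and the median log2 ratio went from -0.06 to -1.03. Without the deeper Scr_300 library 16 were higher and 6 lower, at a median of 0.67. Without the shallower Scr_600 library the counts were 14 and 1, and without the shallower Scr_300 library 5 and 7.

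In Nfat5-KO cells 6 of 43 members (13.95%) were higher by 2-fold or more at 600 than at 300 mosmol/kg and 3 (6.98%) lower, beside 6.25% and 4.11% of 12982 genes and 19.1% and 14.9% of other short genes. The median log2 ratio was 0.12. Without the members that were not whole reads, 4 of 40 were higher and 3 lower (median 0.11). Those higher were Snora34, Snord100, Scarna6, Snora20, Snora62 and Snord98, and those lower Snord42b, Snora69 and Snora21. Of these, 4 of the higher and 2 of the lower were under 0.5 FPKM in 1 of the 2 groups and could enter only through the other. Among the 36 members at 0.5 FPKM or more in both groups, 2 were higher and 1 lower. With 4 libraries on each side, 0 of 38 members had every Nfat5-KO_600 library above every Nfat5-KO_300 library and 1, Snord42b, had every library below. For other short genes those shares were 4.11% and 4.38%.

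Snord42b, in Rpl23a, had 3, 1, 3 and 5 reads in Nfat5-KO_300 and 0 reads in all 4 libraries of Nfat5-KO_600. With a limit of 3 reads for a group at 0, it was at least 4.49-fold lower, while the exact counting interval of the ratio, which also covers the error of the 12 reads, reached up to 0.321. In Scr cells it had 5 and 1 reads at 300 and 6 and 4 at 600 mosmol/kg, so that Nfat5-KO_600 was the 1 group without a read. Against Scr_600 the level was at least 6.49-fold lower by the same limit, and the interval reached up to 0.229. Its host Rpl23a, a ribosomal protein of the large subunit, was at 164 FPKM in Scr_600 and 165 in Nfat5-KO_600. Snord42b overlaps an annotated exon of Rpl23a. No member listed at 0 in a group reached 2 FPKM in another.

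Other knockout differences rested on few reads or on 1 library. Snord98 had 1, 2, 0 and 0 reads in Nfat5-KO_300 and 1, 1, 12 and 1 in Nfat5-KO_600, so 80.0% of the latter came from 1 library. Snora62, in an intron of Rpsa, had 1, 0, 2 and 1 reads at 300 and 2, 0, 9 and 6 at 600 mosmol/kg, a ratio of 3.79 (1.24 to 15.5) with libraries that overlapped. Snora20, in an intron of the chaperonin gene Tcp1, had 1, 0, 3 and 0 and then 5, 2, 6 and 3 reads, a ratio of 3.57 (1.15 to 14.7), and overlapped as well. Snord55 had 22, 16, 20 and 16 reads and then 6, 2, 19 and 23, so that at 600 mosmol/kg 2 libraries were far below the rest and 2 were not. Without 1 library at a time, 2 to 6 members were higher and 2 to 5 lower, beside 4 and 3 with all, and the median log2 ratio ran from -0.16 to 0.28.

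**Figure D3:**
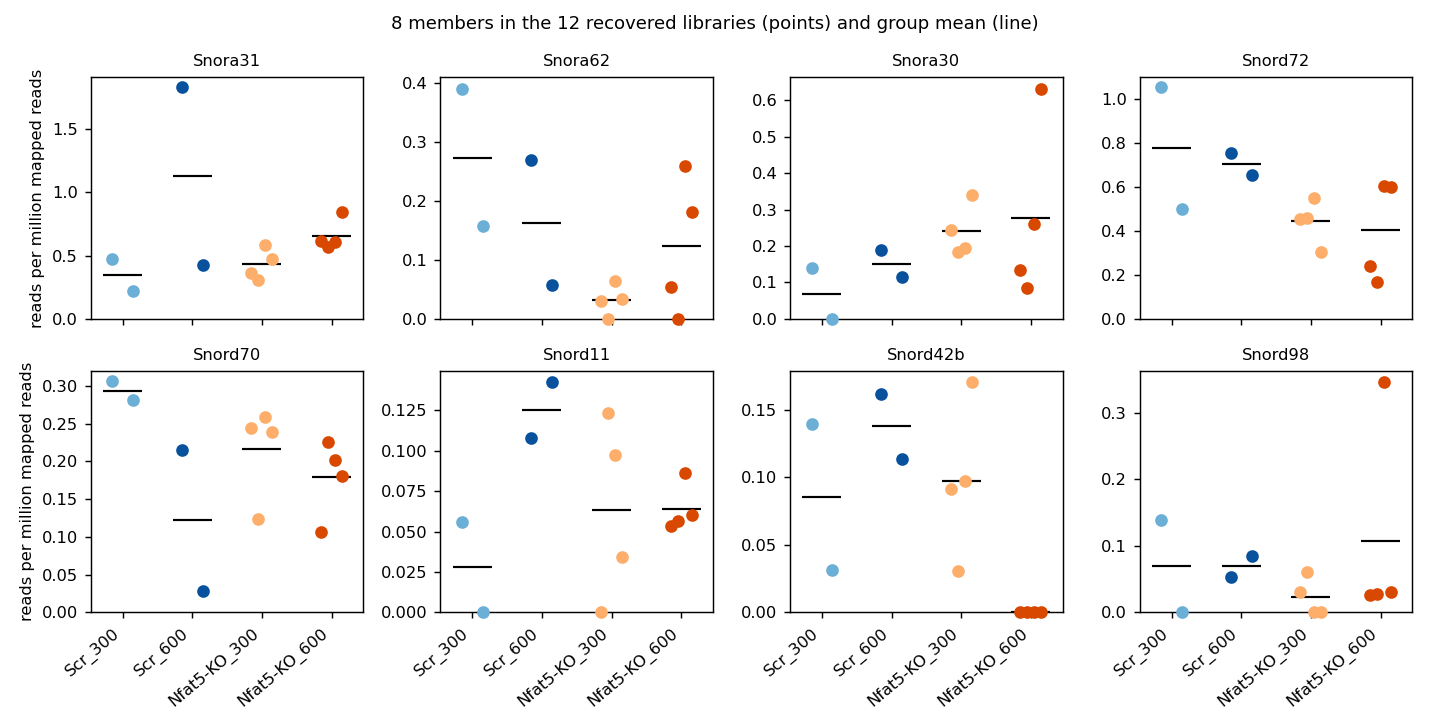
Reads per M mapped reads of 8 members in the recovered libraries (points, 2 per Scr group and 4 per Nfat5-KO group) with the group mean (line), each panel on its own scale. Snord42b is at 0 in all 4 Nfat5-KO_600 libraries, all 4 Nfat5-KO_300 points of Snora62 lie below both Scr_300 points, and single libraries carry Snora31 in Scr_600 and Snord98 in Nfat5-KO_600.

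Among the other members with high or low hypertonic ratios, reads were few as well. Snord37, in an intron of the elongation factor gene Eef2, had 4 and 0 reads in Scr_300 and 5 and 6 in Scr_600, against 1, 1, 1 and 4 and then 3, 4, 2 and 0 in the knockout. Snora47, in an intron of Zbed3, had 2 and 1 reads, then 5 and 5, and 4, 0, 4 and 1 and then 7, 2, 11 and 1 in the knockout. In both genes the Scr libraries did not overlap between osmolalities, but 2 against 2 libraries also separated in more of the other short genes (17.9% higher, 20.8% lower) than 4 against 4 in the knockout (4.11% and 4.38%), and the difference between genotypes was not tested. Snora69, in an intron of Rpl39, had 3 and 1 reads and then 7 and 3 in Scr cells, but 4, 0, 4 and 5 and then 1, 0, 0 and 2 in the knockout. Snora21, in an intron of Rpl23, had 5, 1, 6 and 9 reads in Nfat5-KO_300 and 1, 0, 5 and 4 in Nfat5-KO_600. Snord65 had 4 and 6 reads and then 4 and 1 in Scr cells, and 1, 4, 1 and 8 and then 2, 0, 3 and 3 in the knockout, so its pooled level was lower at 600 mosmol/kg in both genotypes while the knockout libraries overlapped.

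Set side by side over the 42 members compared in both genotypes, the hypertonic log2 ratios were above 0 in both for 15 members, below 0 in both for 9 and opposite for 18. Across these members Pearson's r was 0.06 and Spearman's rho 0.14, as a description of genes that share libraries and depth. Over the 39 of them in whole reads, the counts were 13, 9 and 17, r was -0.02 and rho 0.07. The difference of the ratios (Nfat5-KO minus Scr) had a median of -0.32 and ran from -4.57 (Snord42b) to 2.24 (Snora62), and 13 members differed by 2-fold or more. Snora34 and Snord100 were the members at least 2-fold higher in both genotypes. Snora34 was at 1.45, 4.93, 1.41 and 3.31 FPKM in Scr_300, Scr_600, Nfat5-KO_300 and Nfat5-KO_600, and Snord100 at 3.54, 7.53, 2.24 and 5.19 FPKM. Both belong to the 4 members that were not whole reads of the 12 libraries, so no reads per library stand behind these values. Snora2b, which shares the host Kansl2 with Snora34, had 2 and 4 reads in Scr_300 and 13 and 2 in Scr_600, and its knockout reads were 1, 1, 2 and 12 and then 3, 1, 10 and 10.

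**Figure D4:**
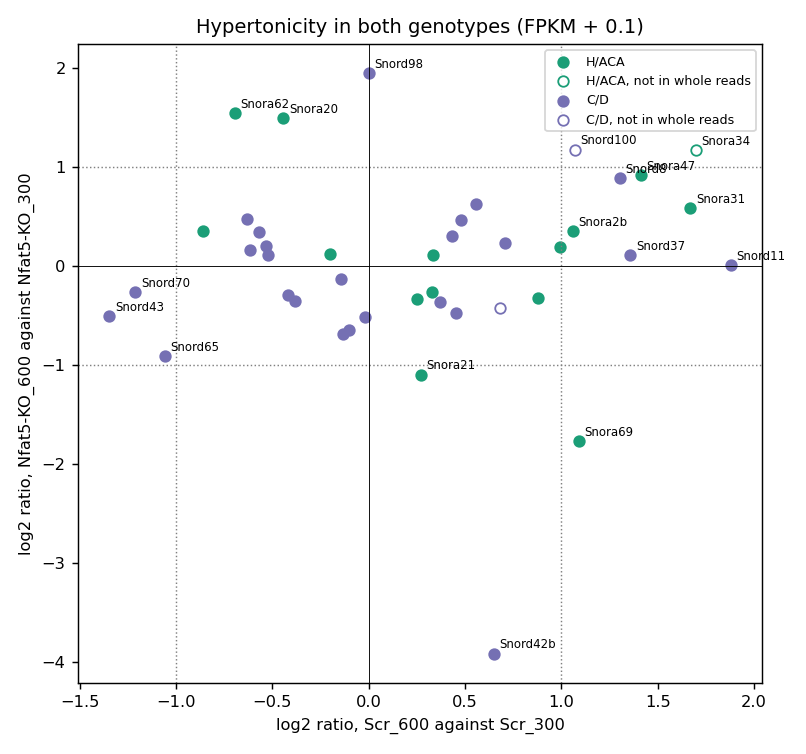
log2 ratio of 600 against 300 mosmol/kg (FPKM + 0.1) in Scr cells (x axis) and Nfat5-KO cells (y axis) for 42 members, coloured by class, with open symbols for members not in whole reads and dotted lines at 2-fold. Points lie in all quadrants (15 above 0 in both, 9 below, 18 opposite), and Snora34 and Snord100 are in the upper right.

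The knockout comparison at 300 mosmol/kg leaned to lower values. Of 48 members, 11 (22.9%) were lower by 2-fold or more in the knockout and 1 (2.08%) higher, beside 2.44% and 1.73% of 12704 genes and 14.9% and 7.85% of 637 other genes under 400 bases. The median log2 ratio was -0.32 over the members, -0.0015 over all genes and -0.15 over the other genes under 400 bases. Below 0 were 30 of 48 members and 383 of 637 other short genes. Without the members that were not whole reads, 11 of 45 were lower and 1 higher (median -0.36). C/D members had 7 of 31 lower and 0 higher (median -0.43), and H/ACA members 2 of 15 lower and 1 higher (median 0.31). Of the 11 lower members 10 were under 0.5 FPKM in Nfat5-KO_300 and could be members of this comparison only through Scr_300. Among the 34 members at 0.5 FPKM or more in both groups, 1 was lower (Snord83b) and 1 higher (Snora30).

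Snora62 had the lowest log2 ratio on the scale of FPKM + 0.1, at -2.61. It had 14 and 5 reads in Scr_300 against 1, 0, 2 and 1 in Nfat5-KO_300, a ratio of 0.114 (0.0282 to 0.343), and every knockout library lay below both Scr libraries. In reads alone Scarna9 and Snord15a were lower still, both at 0.108 with 1 read in Nfat5-KO_300. At 600 mosmol/kg Snora62 had 10 and 2 reads in Scr cells and 2, 0, 9 and 6 in the knockout, which overlapped, at a ratio of 0.727 (0.327 to 1.67). The host of Snora62, Rpsa, a protein of the small ribosomal subunit, was at 296 FPKM in Scr_300 and 244 in Nfat5-KO_300.

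Snora30, in an intron of Srcap, went the other way. It had 5 and 0 reads in Scr_300 and 8, 6, 6 and 10 in Nfat5-KO_300, a ratio of 3.25 (1.25 to 10.7) with every knockout library above both Scr libraries. At 600 mosmol/kg the reads were 7 and 4 in Scr cells and 5, 3, 9 and 21 in the knockout, which overlapped (ratio 1.77, interval 0.888 to 3.85). Snora23 and Snord88c, next in the order of ratios, had 8 and 3 reads against 6, 4, 16 and 5, and 7 and 1 against 3, 5, 3 and 12, and overlapped. Snora78, within Snhg9, had 11 and 13 reads in Scr_300 and 5, 8, 5 and 5 in Nfat5-KO_300, a ratio of 0.519 (0.280 to 0.959). Libraries of the group lay wholly on one side in 1 of 43 members above (Snora30) and in 7 below (Snord70, Snord89, Snora78, Snora62, Scarna8, Snord53 and Snord59a). Among 372 other genes under 400 bases, these shares were 3.49% and 14.2%. Of the 7, Snora62, Scarna8, Snord53 and Snord59a were under 0.5 FPKM in Nfat5-KO_300 and could enter only through Scr_300. The filter thus favoured the lower side.

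The Scarna genes were low everywhere. Scarna8, in an intron of Haus6, had 4 and 6 reads in Scr_300, 4 and 0 in Scr_600, 2, 3, 0 and 0 in Nfat5-KO_300 and 2, 1, 3 and 2 in Nfat5-KO_600. Scarna9, in an intron of Cep295, had 1 and 4 reads in Scr_300, 3 and 0 in Scr_600, and 1 read in each Nfat5-KO group. The ratio of Scarna9 in Nfat5-KO_300 against Scr_300 was 0.108, with an interval of 0.00229 to 0.967. Scarna6, in an intron of the autophagy gene Atg16l1, had 3 and 4, 4 and 2, then 3, 0, 0 and 3, and 8, 0, 6 and 8 reads. In Scarna6 the Nfat5-KO_600 group had both the most reads and 1 library without any.

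At 600 mosmol/kg 11 of 48 members (22.9%) were lower by 2-fold or more in the knockout and 0 higher, beside 3.68% and 3.76% of 13063 genes and 14.3% and 12.7% of 659 other short genes. The median log2 ratio was -0.49 over the members, -0.02 over all genes and -0.18 over the other short genes. Below 0 were 34 of 48 members and 403 of 659 other short genes. Without the members that were not whole reads, 9 of 44 were lower and 0 higher (median -0.36). C/D members had 9 of 31 lower (median -0.52) and H/ACA members 1 of 15 (median -0.21). Of the 11, 6 were under 0.5 FPKM in Nfat5-KO_600. Among the 40 members at 0.5 FPKM or more in both groups, 5 were lower and 0 higher (median -0.29). Snord35a, Snord83b, Snord87 and Scarna9 were among the 2-fold lower members at both osmolalities, in comparisons that share no library. How many members would be shared without a common difference was not calculated. Snord87 and Scarna9 were under 0.5 FPKM in both Nfat5-KO groups, and Snord35a was so in Nfat5-KO_300. There they could enter only through the Scr group, so the filter favoured lower values in the knockout.

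Snord83b, which shares the host Rpl3 with Snord43, had 28 and 7 reads in Scr_300 and 6, 2, 5 and 13 in Nfat5-KO_300, and 23 and 5 reads in Scr_600 against 4, 2, 12 and 5 in Nfat5-KO_600. The ratios were 0.402 (0.232 to 0.687) and 0.422 (0.232 to 0.759). In both comparisons the shallower Scr library lay within the range of the knockout libraries, and 80.0 and 82.1% of the Scr reads came from the deeper one. Snord35a, in an intron of Rpl13a, had 9 and 0 and then 9 and 4 reads in Scr cells, against 1, 1, 2 and 1 and then 1, 0, 2 and 5 in the knockout. Its ratios were 0.301 (0.0791 to 0.999) and 0.316 (0.113 to 0.822), and the libraries overlapped.

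Snord72, in an intron of Rpl37, had more reads behind its values. It had 38 and 16 reads in Scr_300 and 28 and 23 in Scr_600, against 15, 15, 17 and 9 in Nfat5-KO_300 and 9, 6, 21 and 20 in Nfat5-KO_600. The ratios of knockout to Scr were 0.561 (0.379 to 0.831) and 0.564 (0.379 to 0.840). At 600 mosmol/kg every knockout library (0.170 to 0.605 RPM) lay below both Scr libraries (0.655 and 0.754). At 300 mosmol/kg 1 knockout library (0.551 RPM) lay above the shallower Scr library (0.5004). Its host Rpl37 was at 234 and 170 FPKM in Scr cells and at 227 and 151 in the knockout.

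In 7 of 42 members every Nfat5-KO_600 library was below both Scr_600 libraries (Snord72, Snord17, Snord37, Snord42b, Snord11, Snora69 and Snord34), and in 0 every library was above. Among 372 other short genes this held for 10.5% and 6.45%. Of the 7, Snord42b, Snora69 and Snord34 were under 0.5 FPKM in Nfat5-KO_600 and could enter only through Scr_600. The filter thus favoured lower values in the knockout. Snord17, a long C/D snoRNA in an intron of Snx5, had 27 and 21 reads in Scr_600 and 13, 8, 17 and 19 in Nfat5-KO_600, and at 300 mosmol/kg the order was not seen, with 22 and 11 reads in Scr cells and 7, 12, 28 and 24 in the knockout. Members with the highest knockout ratios at 600 mosmol/kg beside Snora30 were Snord7 and Snord71. Snord7 had 12 and 1 reads in Scr_600 and 13, 7, 15 and 10 in Nfat5-KO_600, and Snord71 had 3 and 1 against 3, 0, 7 and 3, so the libraries overlapped in both. Snord73a, in an intron of Rps3a1, had 17 and 2 reads in Scr_600 and 0, 4, 6 and 4 in Nfat5-KO_600.

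The lean to lower values in the knockout depended on single libraries. Over the 43 members with reads per library at 300 mosmol/kg, 11 were lower and 1 higher with all libraries. Without the deeper Scr_300 library 5 were lower and 12 higher, and the median log2 ratio turned from -0.36 to 0.31. Over 42 members at 600 mosmol/kg, 9 lower and 0 higher became 7 lower and 14 higher without the deeper Scr_600 library, and the median turned from -0.42 to 0.60. Without the shallower Scr libraries the counts were 15 lower and 1 higher at 300 and 16 lower and 0 higher at 600 mosmol/kg. Of the knockout libraries, leaving out the second deepest of Nfat5-KO_600 also turned the median at 600 mosmol/kg, from -0.42 to 0.01, with 8 lower and 3 higher, and leaving out the third deepest gave 15 lower and 0 higher. Without single Nfat5-KO_300 libraries 10 to 16 were lower and 1 to 3 higher, and the median stayed below 0.

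Over all pairs, members and hosts differed in median change with hypertonicity, while most pairs lay on the same side of 0. In Scr cells the median log2 ratio at 600 against 300 mosmol/kg was 0.00095 for 47 members with a host and -0.40 for their hosts. In 28 pairs both were on the same side of 0, in 17 the member was above and the host below, and in 2 the reverse held. In the knockout the medians were 0.12 and -0.44 over 40 pairs, with 30, 10 and 0 such pairs in the same order. Over the members in whole reads, the member medians were -0.10 (43 pairs) in Scr cells and 0.12 (37 pairs) in the knockout, and the host medians were as before. For members in ribosomal protein genes the medians were -0.06 (16 members) and -0.47 (hosts) in Scr cells, and -0.46 (14 members) and -0.61 (hosts) in the knockout, and in whole reads -0.12 and -0.47 (14 members) and -0.51 and -0.55 (12 members). Across the pairs Pearson's r was 0.28 and Spearman's rho 0.26 in Scr cells, and 0.29 and 0.42 in the knockout. These values describe genes that share libraries and, for 12 members in 5 hosts, share the host. Between genotypes r was 0.17 and rho 0.24 at 300, and r 0.03 and rho 0.11 at 600 mosmol/kg.

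Members of 1 host can be set beside each other. Snord49a, Snord49b and Snord65 in the noncoding host 2410006H16Rik had hypertonic log2 ratios of -0.42, -0.52 and -1.06 in Scr cells and -0.29, 0.12 and -0.91 in the knockout, where the host was at -0.89 and -0.44. Snord32a, Snord34 and Snord35a in Rpl13a had knockout log2 ratios at 300 mosmol/kg of -0.79, -1.27 and -1.45, and the host -0.48. At 600 mosmol/kg they were -0.06, -2.81 and -1.47, and the host -0.07. Snord34 rested on 2 reads in Scr_300, 3 in Scr_600, 1 in Nfat5-KO_300 and 0 in Nfat5-KO_600.

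**Figure D5:**
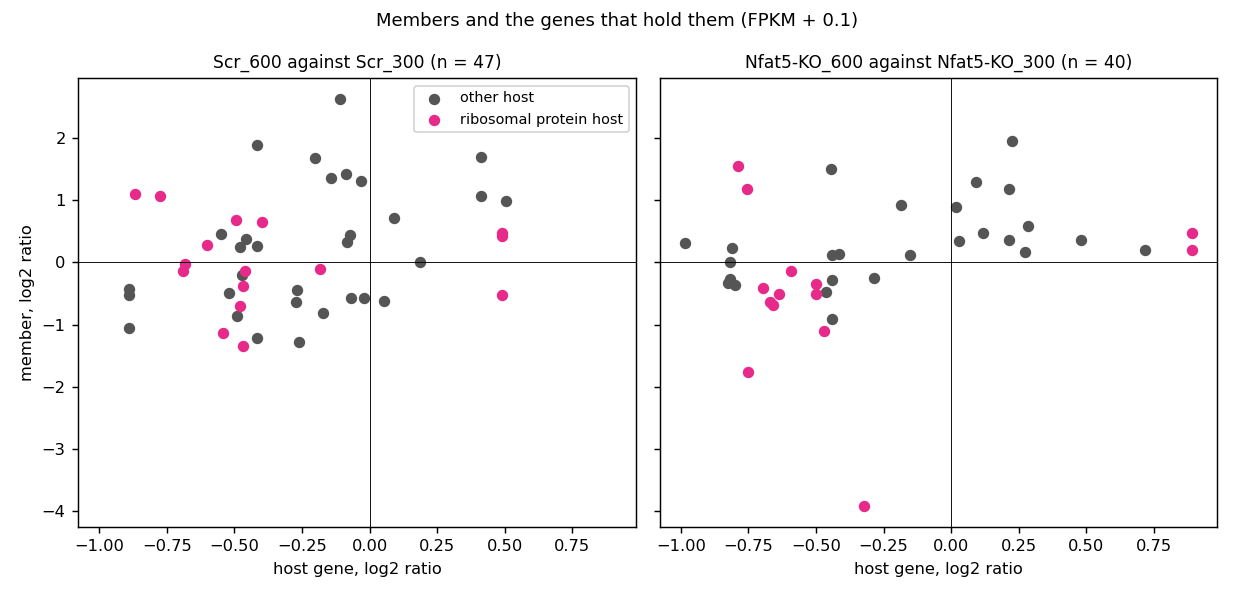
log2 ratio of 600 against 300 mosmol/kg (FPKM + 0.1) of each member (y axis) and of the gene that holds it (x axis), in Scr cells (left, 47 pairs) and Nfat5-KO cells (right, 40 pairs), with ribosomal protein hosts in pink. Most hosts lie below 0, while members scatter over a wider range on both sides.

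Most transcripts of the proteins of the snoRNA particles had log2 ratios below 0 at 600 against 300 mosmol/kg, though few passed 2-fold. Over all genes, 7058 of 12929 were below 0 in Scr cells and 6862 of 12982 in Nfat5-KO cells. The H/ACA core genes Dkc1 (dyskerin), Nhp2, Nop10 and Gar1 had median log2 ratios of -0.27 (Scr, 4 of 4 below 0) and -0.87 (Nfat5-KO, 3 of 4 below 0). Dkc1 was at 22.6 FPKM in Scr_300, 19.9 in Scr_600, 26.5 in Nfat5-KO_300 and 15.2 in Nfat5-KO_600, and Gar1 at 33.6, 21.0, 41.8 and 18.9 FPKM. The C/D core genes Fbl (fibrillarin), Nop56, Nop58 and Snu13 had medians of -0.35 and -0.77, with 4 of 4 below 0 in both genotypes. Fbl was at 30.6, 26.0, 32.9 and 19.6 FPKM in the same order. Over all genes the medians were -0.04 and -0.04.

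Assembly factors (9 with values, such as Naf1, Shq1 and Ruvbl1) had medians of -0.39 (Scr) and -0.78 (Nfat5-KO), with 8 of 9 below 0 in each. Naf1, which escorts dyskerin to new H/ACA RNAs, was at 17.1, 10.3, 15.2 and 7.93 FPKM. The 10 genes of the Cajal body and snoRNA transport, among them Coil (coilin) and Wrap53, had medians of -0.18 and -0.27. The 5 genes of 3′ end processing had medians of -0.35 and -0.34, and the 12 genes of spliceosomal snRNP proteins of -0.39 and -0.62. In these 6 lists (4, 4, 9, 10, 5 and 12 genes), 2 genes were at least 2-fold lower in the knockout and 0 in Scr cells. In either genotype 0 were at least 2-fold higher. Over all genes, 4.11% were lower in the knockout and 2.86% in Scr cells, and 6.25% and 4.81% were higher. In the knockout against Scr cells, the core lists had medians of 0.27 (H/ACA) and 0.05 (C/D) at 300 mosmol/kg and of -0.20 and -0.34 at 600 mosmol/kg.

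Most host lncRNAs of snoRNAs had log2 ratios below 0 at 600 mosmol/kg and in the knockout, beside 6377 of 12704 (300 mosmol/kg) and 6817 of 13063 genes (600 mosmol/kg) for the latter. Of 13 compared in Scr cells 9 were below 0 (median -0.25), and of 12 in Nfat5-KO cells 9 (median -0.33). In the knockout 10 of 12 were below 0 at 300 mosmol/kg (median -0.25) and 11 of 13 at 600 mosmol/kg (median -0.52). At 600 against 300 mosmol/kg 2 were at least 2-fold higher and 0 lower in Scr cells, Dancr at 2.81 and 6.17 FPKM and Snhg7 at 0.123 and 0.687 FPKM, and 0 were higher and 1 lower (Snhg5) in the knockout. Over all genes the shares higher and lower were 4.81% and 2.86% in Scr cells, and 6.25% and 4.11% in the knockout. Against Scr_600, Dancr and Snhg7 were at least 2-fold lower in Nfat5-KO_600, at 2.95 and 0.198 FPKM, beside 3.68% of all genes. Gas5, which holds many C/D snoRNAs, was at 9.04, 6.46, 5.22 and 3.98 FPKM in Scr_300, Scr_600, Nfat5-KO_300 and Nfat5-KO_600, and Snhg1 at 66.6, 49.4, 56.9 and 29.8 FPKM. Among 12 other small noncoding RNA genes, 4 could be compared between osmolalities in Scr cells and 5 in the knockout. In Scr cells 3 were above 0 and 1 below (median 0.53), and in the knockout 2 were above and 3 below (median -0.49). In each genotype 1 was at least 2-fold higher, Rn7sk, beside 4.81% and 6.25% of all genes. Rn7sk, the 7SK RNA that holds the elongation factor P-TEFb, was at 1.87 (Scr_300), 5.06 (Scr_600), 1.62 (Nfat5-KO_300) and 6.31 FPKM (Nfat5-KO_600).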

How the data were processed

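RNA-seq libraries of 12 mpkCCD cultures in 4 groups were used. The authors filtered the paired reads for adapters and quality, aligned them with HISAT2 (mouse build GRCm38), used HTSeq for the counts (both tools stand in the submitters' processing notes, with build mm10) and deposited 1 FPKM value per gene and group. Tool versions and strandedness are not given in the sources used here. Of 54839 rows, 2436 held no value, and 311 exact duplicates and 37 symbols with differing rows were left out.

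Positions, lengths, hosts and sequences came from GENCODE M21 (GRCm38). The host was the gene on the same strand that spans a member, and the one with the highest level where several do. Log2 ratios of FPKM + 0.1 were limited to genes that reached 0.5 FPKM in either of the 2 groups, and those past 2-fold were counted. With 1 pooled value per group no p-value was calculated. FPKM times length was resolved into whole reads of each library, which held for 170 of 196 member values at the annotated length and for 5 with the length 1 base too long. Counting intervals are exact (Clopper-Pearson, 95%) and were scaled by depth. They cover counting error only. For a group at 0 a limit of 3 reads was used. Of 3100 other genes under 400 bases, 798 (25.7%) had a value below 1 read of any library, which these steps cannot give. Genes with near-identical copies are uncertain. The sequence of 1 member and the host of another are not reported here.

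The members, lists and rules were chosen with earlier results of these data known. Genes named were the 10 with the highest mean, the 3 highest and 3 lowest ratios per comparison among members with 0.5 FPKM in both groups, members at 0 in a group and at 2 FPKM or more in another, all Scarna genes, those next to the threshold and some well known snoRNAs. Others named (among them Snord42b, Snord11, Snord98, Snora20, Snora2b and Snora69) were chosen after their values were seen, as was the recovery of reads per library. The step sizes were fitted on short genes of these same data, and their accuracy was not tested. Alternatives were median-of-ratios factors, pseudocounts of 0.01 and 1 FPKM, members with a mean of 1 FPKM or more, and no filter. Tools were matplotlib 3.10.9, scipy 1.17.1, numpy 2.4.6, pandas 2.3.3 and Python 3.11.15.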

Additional observations from a re-analysis of the deposited data

Results flagged for a closer look

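In 7 of 67 sets of 4 recovered Nfat5-KO libraries with at least 10 reads, or class sums, 1 library stood apart from the other 3. Chance flags about 1 in 20 such sets, and the values are small counts. In Nfat5-KO_600 the Scarna members together were at 0.0283 reads per M (1e6) mapped reads in 1 library and at 0.267 or more in the others. Snord98 was at 0.346 in 1 library of Nfat5-KO_600 and at 0.0301 or less in the rest, and Snord43 at 0.404 in 1 library and at 0.170 or less in the rest. In Nfat5-KO_300 Snora2b was at 0.409 in 1 library against 0.0648 or less, and Snora23 at 0.519 against 0.183 or less. In the same group Snord7 was at 0.0305 in 1 library against 0.277 or more, and Snord70 at 0.123 against 0.239 or more. No cause was tested.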

How the results depend on the processing

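No paired analysis was possible because the deposited columns are pooled and carry no replicate number.

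For the members past 2-fold, with counts given as higher and lower where both moved, a pseudocount of 1 FPKM left 2 and 1 for hypertonicity in Scr cells (10 and 5 in the report), 0 and 1 in Nfat5-KO cells (6 and 3), 0 higher and 1 lower for the knockout at 300 mosmol/kg (1 and 11) and 1 lower at 600 mosmol/kg (11). A pseudocount of 0.01 FPKM gave 3 higher for the knockout at 300 mosmol/kg. Without the filter 9 were lower for hypertonicity in Scr cells, 11 higher in Nfat5-KO cells, and 3 higher for the knockout at each osmolality. With a mean of at least 1 FPKM there were 6 and 3 for Scr cells, 3 and 1 for Nfat5-KO cells, and 3 and 6 lower for the knockout at 300 and 600 mosmol/kg. Median-of-ratios factors (0.990 to 1.03) moved no count by over 1.5 times.

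Alternatives chosen after seeing the data were leaving out the 4 members not in whole reads, where the median log2 ratio for hypertonicity in Scr cells went from 0.26 to -0.0089, leaving out the Scarna members, and leaving out single libraries. For the members with reads per library, the latter gave 3 to 16 higher, 1 to 22 lower and medians of -1.03 to 0.67 for hypertonicity in Scr cells. In Nfat5-KO cells they gave 2 to 6 higher, 2 to 5 lower and medians of -0.16 to 0.28. For the knockout at 300 mosmol/kg they gave 1 to 12 higher, 5 to 16 lower and medians of -0.65 to 0.31, and at 600 mosmol/kg 0 to 14 higher, 7 to 16 lower and medians of -0.78 to 0.60. In the Scr comparisons the lone library left is assumed to vary as the pair did.

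Without Snora57 the H/ACA sums were 19.4 (Scr_300), 19.0 (Nfat5-KO_300) and 23.2 FPKM (Nfat5-KO_600). Without Snord104 the C/D sums were 78.9 (Scr_600), 61.2 (Nfat5-KO_300) and 56.5 FPKM (Nfat5-KO_600). Of 96 values under the other alternatives 71 were labelled as the same, 24 as moved and 1 as changed in sign. The label of the same allowed wide shifts in sums and medians. It held for the C/D sum in Scr_300 at 159 and, without Snord104, 81.6 FPKM. It also held for the H/ACA sum in Scr_600 at 57.0 and, without Snora57, 31.6 FPKM. With single libraries left out, it held for a median that went from -0.06 to -1.03 for hypertonicity in Scr cells. The 71 thus do not show that the results were stable. The cause of the moves was not tested. About 10 to 18 reads per member and group limit what these data can show.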
